A study of Drosophila melanogaster with 3 samples.

Results

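The regions described here are 424 weak promoter entries of a genome-wide map of the protein M1BP in Drosophila melanogaster embryos. They come from the pooled list of the experiment, which holds 30000 candidate regions in order of signal value. Entries were chosen by the measured q-value and by position. An entry was taken if its −log10 q-value was 2 or more, if it was missing from the shorter list that the authors kept after an irreproducible discovery rate (IDR) threshold, if its summit lay within 250 bp of a protein-coding start site, and if no thresholded summit lay within 500 bp. Of the 30000 entries, 5808 reached a −log10 q-value of 2 and 1210 of these were not among the 4598 thresholded peaks. At promoters there were 730 of the 1210, and 306 of those had a thresholded summit within 500 bp, at a median distance of 203 bp, and were left out. The remaining 424 entries stand for 416 separate places when neighbours within 250 bp are counted once.

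Chromatin immunoprecipitation and sequencing (ChIP-seq) had been done on whole embryos of both sexes aged 0 to 24 h, from 1 transgenic line that makes M1BP, the product of CG9797, with GFP at its C-terminus. The 3 biological replicates form 1 group, and no untagged or other genotype was among the samples used here. One label text describes the libraries as input controls, while the antibody field, the assay title and the control experiment listed apart from them speak of immunoprecipitated libraries, which is how they were treated. The antibody field names CG9797, and whether the tag or the protein itself was precipitated is not given. Embryos of this age range mix stages and tissues, so stronger binding and binding in more cells cannot be told apart. The control libraries were not analysed here, and the read depth is unknown because the lists carry no read counts.

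M1BP is a zinc-finger protein that binds Motif 1, a core promoter element found just around the start sites of many broadly expressed genes, where RNA polymerase II pauses soon after initiation. The DNA replication-related element, DRE, is another element of housekeeping promoters and is bound by a different factor, DREF. Motif 6, Motif 7 and an E-box are further elements of such promoters, whereas TATA boxes, initiators and GAGA repeats are typical of developmentally regulated ones.

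Only 3 of the 424 weak entries held Motif 1 exactly within 100 bp of the summit, and they lie at hrm, GstD5 and del. The entry at hrm had a pooled signal value of 248.6, that at GstD5, a glutathione S-transferase gene, 246.9, and that at del, which encodes the piRNA cluster factor Deadlock, 212.4. Their match is shown with the bases around it, read along the strand of the motif with the motif in capitals, from the dm6 genome. At GstD5 it lies at chr3R:12375443-12375472 (plus strand), outside protein-coding genes and 276 bp upstream of the start site. At del it lies at chr2L:21148397-21148426 (minus strand), in the 5′ UTR and 5 bp downstream of the start site.
GstD5: tgtgacgatCGGTCACACTGaagataagcg
del: ccgacctcaCGGTCACACTGgtatgaactg
For comparison, 2 thresholded peaks with exact Motif 1 matches were chosen for their high signal values. They lie at Frl, a formin gene, with a signal value of 3443 at chr3L:14053206-14053235 (plus strand), and at CG46311 with 3357 at chrX:13563696-13563725 (minus strand).
Frl: gacccagttCGGTCACACTGtcccgaatat
CG46311: acgctggaaCGGTCACACTGgaaaagaaag
The motif letters at GstD5 and del are the same as at the thresholded pair, while the pooled signal values at the 4 sites range from 212.4 to 3443. In the list of replicate 1 the entry at del ranked 6662, in that of replicate 2 it ranked 7674 and in that of replicate 3 it ranked 8079. The list of replicate 1 placed GstD5 at 4153 and hrm at 3512, that of replicate 3 placed them at 3175 and 5040 in the same order, and neither was listed by replicate 2 within 100 bp.

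A further 11 weak entries held Motif 1 with 1 mismatch, and 4 of the strongest are shown, each with its mismatch at another base. This set and the DRE set after it were chosen after their values had been seen. The first and last positions of Motif 1 each accept a pair of bases, so a difference between the printed matches there is no mismatch. In each substitution the base of the motif comes first and that of the site last, and positions count from 1 at the 5′ end of the motif. CG4968 carries T4A at chr2L:10306873-10306902 (minus strand), PGRP-LE, a gene for a peptidoglycan sensor, carries T10C at chrX:15803909-15803938 (minus strand), elgi carries G2A at chr3L:15956619-15956648 (plus strand) and idc carries A8C at chr3R:20031769-20031798 (plus strand).
CG4968: cgaaactcaCGGACACACTGatgctttcga
PGRP-LE: ttcggaataCGGTCACACCGgaacaaaaac
elgi: aacactactCAGTCACACTAcacaacactg
idc: cgtcgactgTGGTCACCCTGtgtggcgaca
DRE, searched as TATCGATA, which reads the same on both strands, was far more frequent, in 60 of the 424 entries. Among the strongest, 6 are shown along the strand of the gene with DRE in capitals. They are sn, the actin bundler Fascin, at chrX:7969461-7969490 (plus strand), EMC3, a subunit of the ER membrane protein complex, at chr2L:10732448-10732477 (minus strand), the selenophosphate synthetase gene Sps2 at chr2L:10342654-10342683 (plus strand), the germline thioredoxin gene dhd at chrX:5312109-5312138 (plus strand), the mitochondrial ribosomal protein gene mRpL4 at chr2L:16329095-16329124 (minus strand) and dor, the Vps18 subunit of the endosomal tethering complex, at chrX:1665028-1665057 (plus strand).
sn: cattcgatcgaTATCGATAttcctttgtga
EMC3: gtgaaataagcTATCGATAaatgttccgaa
Sps2: aatactaggaaTATCGATAagtgttgaagt
dhd: aataatattcaTATCGATAtcgatagacct
mRpL4: ttaatctagccTATCGATAgaccttaccgc
dor: tggcgactggcTATCGATActgctagtgcc
At dhd another match to DRE overlaps that in capitals and is left in small letters. The DRE in capitals lay upstream of the start site at EMC3, Sps2, dhd and dor, by 40, 33, 47 and 9 bp in that order, and at sn by 227 bp. At mRpL4 it lay 22 bp downstream.

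The values that chose the entries fall in a narrow range. The lowest pooled signal value was 200.5, the median 229.5 and the highest 260.4, at ranks between 4605 and 5805. The 3890 thresholded promoter peaks had a median signal value of 597.1 and went up to 5321. The thresholded list ended at a signal value of 261.2, and the highest entry that it left out had 261.0, so the 2 lists split by signal value. At the other end, the entries just inside the rule were at pdm2, a POU-domain factor gene, with a −log10 q-value of 2.0041, at Vps35, a retromer subunit gene, with 2.01134, and at Lsm12a with 2.01142. Just outside it were Kcmf1 with 1.99773, aop, which encodes the ETS repressor Yan, with 1.99766, and CG3609 with 1.99758. These values are the rule itself and were not tested.

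Distances to start sites and to thresholded summits were bounded by the rule and are given as a description within those bounds. The summits of the weak entries were a median of 57.5 bp from the nearest start site, against 48 bp at thresholded promoter peaks and 98 bp at the 2808 promoter entries under a −log10 q-value of 2 that also had no thresholded summit within 500 bp. Upstream of the start site lay 62.5% of the weak entries, against 74.0% of thresholded promoter peaks and 52.6% of the entries under a −log10 q-value of 2. The summit fell outside protein-coding genes in 174 entries, in a 5′ UTR in 145, in an intron in 74, in a coding exon in 24 and in a 3′ UTR in 7. The nearest thresholded summit was a median of 4797 bp away. Arm 3R held 104 of the entries, 2R 97, 2L 80, X 73, 3L 68 and chromosome 4 held 2. In that order these were 24.5%, 22.9%, 18.9%, 17.2%, 16.0% and 0.472% of the entries. The same arms held 24.5%, 20.5%, 19.1%, 15.7%, 19.6% and 0.574% of protein-coding genes. Of thresholded promoter peaks they held 24.3%, 20.7%, 17.6%, 16.7%, 20.5% and 0.103%. Intervals of 516 bp were deposited for 420 of the 424, so interval widths do not tell the regions apart.

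Motif 1 was rare at the weak entries, and the share with DRE was close to that at the thresholded peaks. Exact Motif 1 was found within 100 bp of the summit in 0.708% of the weak entries (3 of 424, 95% Wilson interval 0.241 to 2.06), in 12.3% of thresholded promoter peaks (478 of 3890), in 1.64% of the weakest 25% of those by signal value (16 of 973, 1.01 to 2.65) and in 0.249% of entries under a −log10 q-value of 2 (7 of 2808, 0.121 to 0.514). The intervals cover counting error over regions only, and that of the weak entries overlaps those of both the weakest thresholded peaks and the entries under a −log10 q-value of 2. With up to 1 mismatch the share was 3.30% at the weak entries (14 of 424, 1.98 to 5.47), against 31.8% at all thresholded promoter peaks, 6.68% in their weakest 25% (5.28 to 8.43) and 1.18% under a −log10 q-value of 2 (0.838 to 1.65). Around all 19252 start sites, which include those at thresholded peaks, 3.25% had an exact match and 8.92% had a match with up to 1 mismatch. Of the 13434 start sites with no thresholded summit within 500 bp, 0.127% had an exact match (17 sites, 0.0790 to 0.203). The looser match was at 0.997% of these 13434. In windows moved 1000 bp to the left of the weak entries' summits the share of the looser match was 0.943%.

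DRE was found in 14.2% of the weak entries (60 of 424, 11.2 to 17.8), in 12.4% of thresholded promoter peaks (11.4 to 13.5), in 13.3% of their weakest 25%, in 5.06% of entries under a −log10 q-value of 2 (4.31 to 5.93) and in 6.45% of all start sites. Moved windows held it in 0.708%. Its place in the promoter was alike in both classes. At the weak entries with DRE the element lay a median of 34 bp upstream of the start site and 83.3% of them had it upstream, against a median of 37 bp upstream and 84.5% at thresholded promoter peaks. It lay within 50 bp of the summit in 37 of the 60. One entry held both DRE and Motif 1 with up to 1 mismatch, which is 0.236% of the weak entries, against 3.06% of thresholded promoter peaks.

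**Figure D1:**
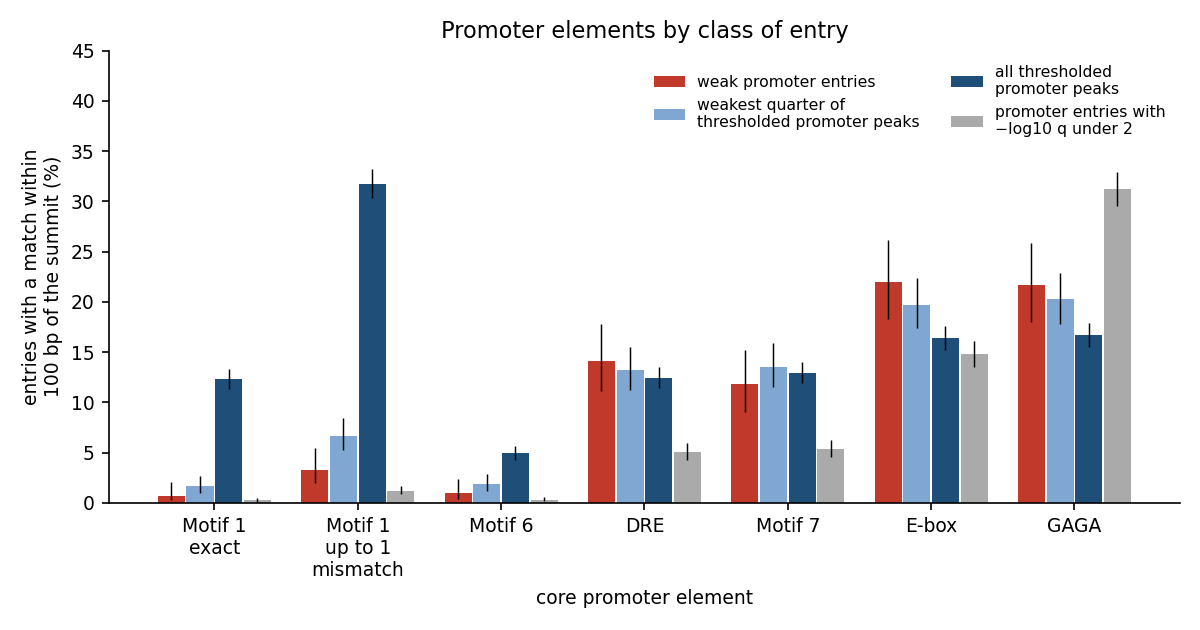
Bars give the share of entries (%) with a match to each promoter element within 100 bp of the summit, for weak promoter entries, the weakest 25% of thresholded promoter peaks, all thresholded promoter peaks and promoter entries with a −log10 q-value under 2, and lines are 95% Wilson intervals. Motif 1 and Motif 6 are lower at the weak entries than at all thresholded promoter peaks (0.708% against 12.3% for exact Motif 1). DRE and Motif 7 stand at 14.2% and 11.8%, close to the thresholded peaks.

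Of the other housekeeping elements, Motif 6 was found in 4 weak entries (0.943%, 0.367 to 2.40) against 4.94% of thresholded promoter peaks and 1.43% of all start sites. The weakest 25% of thresholded promoter peaks held Motif 6 in 1.85% (1.17 to 2.91). Entries under a −log10 q-value of 2 held it in 0.321% (0.169 to 0.608). The interval of the weak entries overlaps both of these. Start sites with no thresholded summit within 500 bp held Motif 6 in 0.335%. Motif 7 was found in 11.8% (9.06 to 15.2) against 12.96% of thresholded promoter peaks and 6.80% of all start sites. The E-box CAGCTG was found in 21.9% of the weak entries (18.3 to 26.1), in 16.4% of thresholded promoter peaks (15.2 to 17.6), in 19.7% of their weakest 25% (17.4 to 22.4), in 13.4% of all start sites and in 9.43% of the moved windows of the weak entries. TATAAA was found in 29.5% of the weak entries, 27.4% of thresholded promoter peaks and 26.9% of all start sites. The moved windows of the weak entries held it in 17.2%. The initiator letters TCAGT were in 35.1% of the weak entries (30.7 to 39.8), 30.7% of thresholded promoter peaks and 43.4% of all start sites. The weak entries' moved windows held these letters in 32.5% (28.3 to 37.1), close to the weak entries themselves. GAGAG was in 21.7% of the weak entries (18.0 to 25.9), 16.7% of thresholded promoter peaks (15.5 to 17.9), 20.2% of their weakest 25% (17.8 to 22.9), 24.99% of all start sites, 31.2% of entries under a −log10 q-value of 2 and 21.9% of the weak entries' moved windows. The letters CAGGTAG, bound by the early embryonic factor Zelda, were in 6 weak entries, or 1.42%, against 0.720% of thresholded promoter peaks and 1.08% of all start sites. They were in 1.65% of the weak entries' moved windows. All motifs were searched on both strands, and none of the spelled-out strings contains another. At least 1 of Motif 1 with up to 1 mismatch, DRE, E-box, Motif 6 and Motif 7 was present in 183 weak entries, or 43.2%, against 59.8% of thresholded promoter peaks.

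Along the pooled ranking, the share with Motif 1 fell well above the IDR cut, while that of DRE fell below it. In bins of 400 thresholded promoter peaks, Motif 1 with up to 1 mismatch stood at 63.8% in the strongest bin shown, at ranks 299 to 704, and at 6.50% in the bin just above the cut. The first 400 promoter entries below the cut, all of them weak entries of the kind described here, had 3.50% and the next 400 had 2.75%. DRE varied between 9.25% and 15.0% over the thresholded bins, stood at 14.2% in the first bin below the cut and at 13% in the next, and was at 9.50%, 5.25% and 3.50% in the 3 bins after that. For Motif 1 the first bin below the cut thus stood under the bin just above it and closer to the next bin down. For DRE it stood within the range of the thresholded bins. The 424 strongest promoter entries under a −log10 q-value of 2 held DRE in 13.4% and Motif 1 with up to 1 mismatch in 2.83%.

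**Figure D2:**
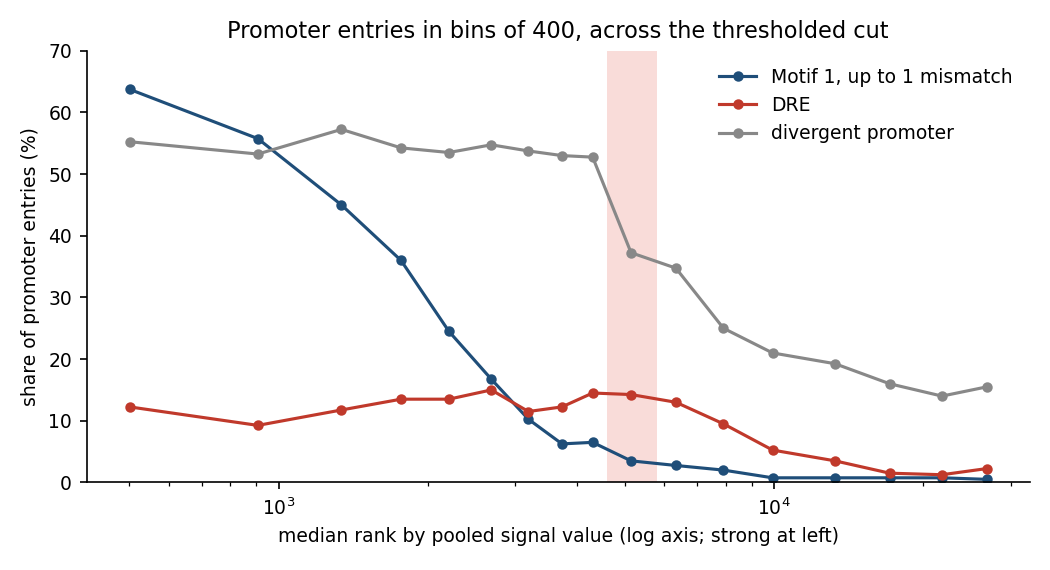
Each point is a bin of 400 promoter entries of the pooled list, placed at its median rank (log axis, strongest at left), and the vertical axis gives the share (%) with Motif 1 with up to 1 mismatch, with DRE or at a divergent promoter, with the ranks of the weak entries shaded. Motif 1 declines to 6.50% before the cut, DRE stays near its thresholded level through the shaded ranks, and the divergent share is 37.2% in the first bin below the cut.

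Fewer of the weak entries lay at divergent promoters, where a start site on the opposite strand lies within 1000 bp upstream. They did so in 158 of 424 cases (37.3%, 32.8 to 42.0), against 54.3% of thresholded promoter peaks (52.7 to 55.9), 52.4% of their weakest 25% (49.3 to 55.5) and 20.6% of entries under a −log10 q-value of 2 (19.1 to 22.1). The 424 strongest entries under a −log10 q-value of 2 stood at 34.7% (30.3 to 39.3), an interval that overlaps that of the weak entries. The condition that no thresholded summit lies within 500 bp bears on this difference by construction. The 306 entries left out by it were divergent in 59.2%, and together with them the share was 46.4% (42.8 to 50.1). Thresholded promoter peaks held to the same condition, with no other thresholded summit within 500 bp, were divergent in 47.7% (45.8 to 49.7). The 627 of these that belong to the weakest 25% of all thresholded promoter peaks were divergent in 47.5% (43.6 to 51.4). Both shares lie above the 37.3% of the weak entries. The condition also moved the motif shares. Of the 306 entries it left out, 7.84% held Motif 1 with up to 1 mismatch (5.33 to 11.4) and 7.19% held DRE (4.80 to 10.6), against 3.30% and 14.2% of the weak entries. Over all 730 the shares were 5.21% for Motif 1 with up to 1 mismatch and 11.2% for DRE. The 2516 thresholded promoter peaks held to the condition had exact Motif 1 in 12.2%, Motif 1 with up to 1 mismatch in 32.0% and DRE in 14.2%, and the same 627 of them had DRE in 17.5% (14.8 to 20.7). DRE was found in 28 of the 158 divergent weak entries (17.7%) and in 32 of the other 266 (12.0%).

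The weak entries were listed unevenly by the replicates, all of which entered the pooled list that chose them, so this is a description. Of the 424, replicate 1 listed 368 with a summit at most 100 bp away (86.8%, 83.2 to 89.7), replicate 2 listed 226 (53.3%, 48.5 to 58.0) and replicate 3 listed 238 (56.1%, 51.4 to 60.8). At thresholded promoter peaks these shares were 96.9%, 73.5% and 87.9%, in the same order. All 3 replicates listed 88 of the weak entries (20.8%), against 63.3% of thresholded promoter peaks and 39.4% of their weakest 25%. The commonest patterns were replicates 1 and 3 without 2, with 118 entries, and replicates 1 and 2 without 3, with 108, while 54 entries were listed by replicate 1 alone, 15 by 2 and 3, 15 by 2 alone, 17 by 3 alone and 9 by none. These patterns depend on the 100 bp limit. With summits up to 250 bp apart, replicate 1 listed 98.8% of the 424, replicate 2 listed 73.1% and replicate 3 listed 75.9%. Within a replicate's own list a −log10 q-value of 2 was reached by 332 of the weak entries in replicate 1, by 44 in replicate 2 and by 32 in replicate 3. Replicate 1's list held 8577 entries at that value, against 3063 in replicate 2 and 3520 in replicate 3.

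**Figure D3:**
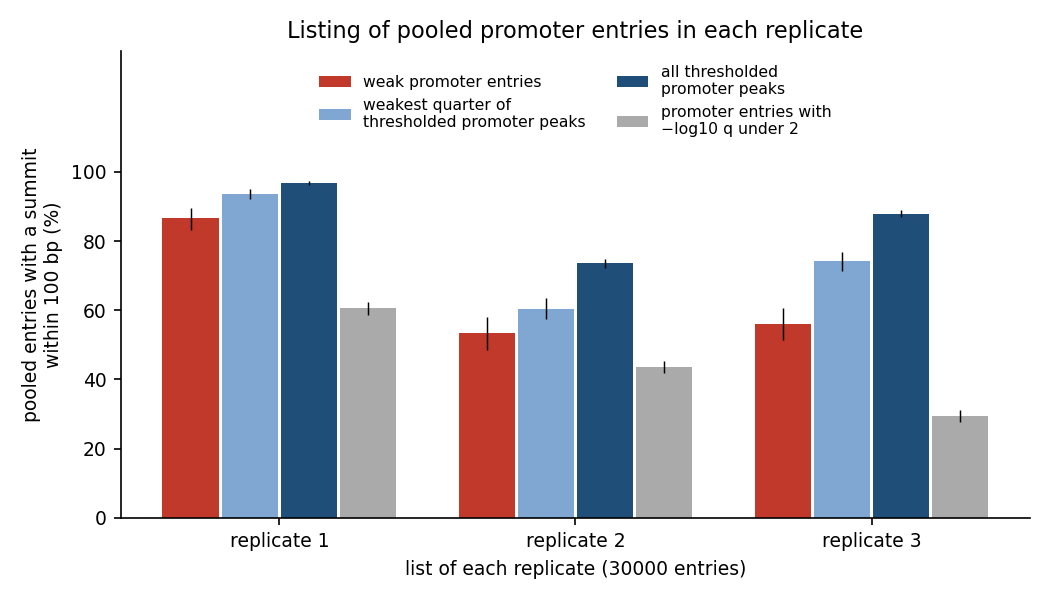
Bars give the share (%) of pooled promoter entries with a summit within 100 bp in the list of each replicate, by class, with 95% Wilson intervals. Replicate 1 lists 86.8% of the weak entries and replicates 2 and 3 list 53.3% and 56.1%, each below its share of thresholded promoter peaks.

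The entries whose worst rank over the 3 lists was best were at Prosbeta4, a subunit gene of the proteasome core, CG8204, unc-104, the gene of a kinesin that carries synaptic vesicle precursors, gek, a kinase gene, and CG44774. Each of them reached a −log10 q-value of 2 in replicate 1 only. Prosbeta4 had 1.71 in replicate 2 and 1.43 in replicate 3, and gek had 1.62 and 0.843. Prosbeta4 ranked 5850 in replicate 1, 3528 in replicate 2 and 3938 in replicate 3. The ranks of gek were 5215 in replicate 1, 3621 in replicate 2 and 4801 in replicate 3, and both genes thus stood in the upper part of every list of 30000. Other weak entries ranked high in a single list and had no summit within 100 bp in the other two. Such a lack need not mean that the other lists held no region nearby. Within 250 bp replicate 1 listed 98.8% of all weak entries. Hsp110, a chaperone gene, ranked 3027 in replicate 1 alone, followed by Vps15, uno, drn and the shared promoter of Arl2 and COX7A. CG5180 ranked 1715 in replicate 2 alone, followed by sea, a mitochondrial citrate carrier gene, atos, tara and Mtp. In replicate 3 alone the highest was the shared entry of CG15916 and MSBP at 2690, followed by wal, Smn, the survival motor neuron gene, CG32425 and Mrtf.

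Base composition went with which replicate listed an entry. The GC content within 100 bp of the summit had a median of 39.3% at the weak entries, the same as at thresholded promoter peaks, and 45.3% under a −log10 q-value of 2. In the 25% of weak entries with the lowest GC content, which had a median of 31.3%, replicate 2 listed 15 of 106 (14.2%), replicate 3 listed 76.4% and replicate 1 listed 88.7%. In the 25% with the highest, which had a median of 48.8%, replicate 2 listed 89 of 106 (84.0%), replicate 3 listed 41.5% and replicate 1 listed 76.4%. With summits allowed to lie 250 bp apart the replicate 2 shares were 41.5% in the lowest 25% and 94.3% in the highest, and those of replicate 3 were 90.6% and 58.5%. Entries listed by replicates 1 and 3 without 2 had a median GC content of 34.1%, and those listed by 1 and 2 without 3 had 42.8%. DRE was in 12.3% of the 106 with the lowest GC content, 17.0% and 20.8% of the next 2 sets of 106 and 6.60% of the highest. Whether base composition had a part in which entries passed the IDR threshold was not tested.

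**Figure D4:**
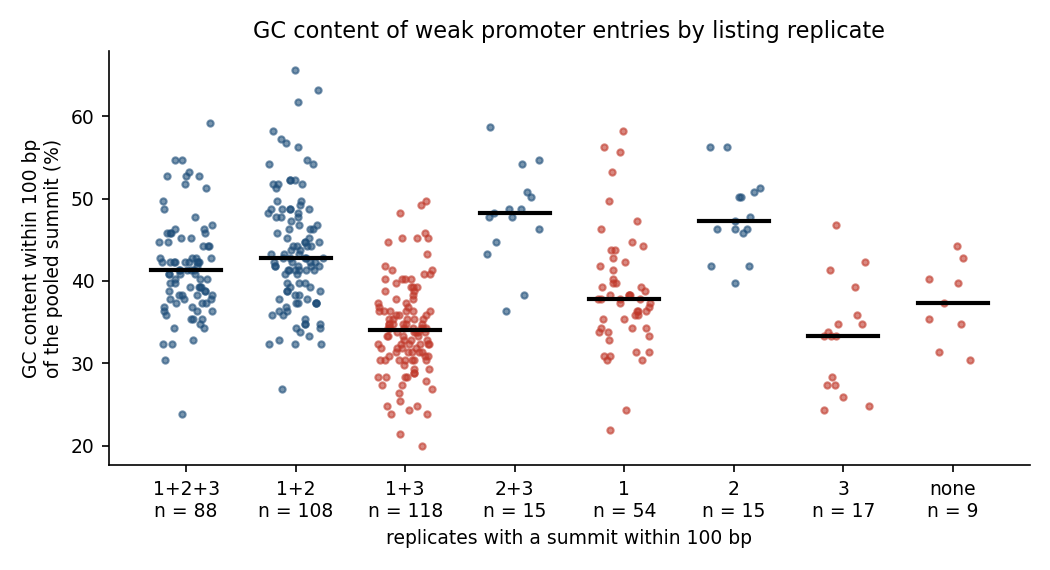
Each point is 1 weak promoter entry, with the GC content (%) within 100 bp of its pooled summit on the vertical axis and the replicates that listed it within 100 bp on the horizontal axis, and bars mark medians. Groups that replicate 2 listed (blue) have medians from 41.3% to 48.3%, and groups it did not list (red) have medians from 33.3% to 37.8%.

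Applying the rule to each replicate's own list gave sets that the pooled values did not choose directly, though each replicate is part of the pool. Replicate 1 gave 1174 such entries, replicate 2 gave 112 and replicate 3 gave 68, so the 3 sets differ in size and rest on different depths of the ranking. Exact Motif 1 was found in 6 entries of replicate 1 (0.511%), 1 of replicate 2 (0.893%) and 2 of replicate 3 (2.94%), which averages 1.45% ± 1.31 (SD, n = 3), against 0.197% ± 0.139 in promoter entries of the same lists under a −log10 q-value of 2 and 12.9% ± 0.617 in entries at thresholded promoter peaks. The mean was 0.702% without replicate 3. The share was above the lower class and below the upper one in each of the 3 replicates, and the exact two-sided sign-flip permutation test over the 3 gave p = 0.25 for both differences, the smallest p that 3 replicates allow. With up to 1 mismatch the shares were 3.15% in replicate 1, 0.893% in replicate 2 and 10.3% in replicate 3, and without replicate 3 they averaged 2.02%. The means over all 3 were 4.78% ± 4.91, 1.04% ± 0.361 and 33.0% ± 1.31 in the same order of classes, again with p = 0.25 in the exact test. DRE was found in 17.1% of the entries of replicate 1, 2.68% of replicate 2 and 16.2% of replicate 3, a mean of 12.0% ± 8.08, against 3.83% ± 1.61 under a −log10 q-value of 2 (exact permutation p = 0.25, with a difference of 0.0479 percentage points in replicate 2) and 12.3% ± 0.532 at thresholded promoter peaks (exact permutation p = 1, higher in 2 of 3). Replicate 2's own set stood apart in DRE and had a median GC content of 48.8%, against 35.6% in replicate 1 and 31.1% in replicate 3. Whether GC content had a part in the DRE share was not tested.

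Start sites of 496 protein-coding genes, 3.56% of 13945, were at most 250 bp from a weak entry. Of these genes 49 also had a thresholded summit at another start site, or 9.88% of the 496. Over all 13945 genes, 4342 had a thresholded peak at a start site. The rule bars a thresholded summit within 500 bp of a weak entry, so it lowers this overlap by construction. Among the 9603 genes with no thresholded summit at a start site, 447 had a weak entry, or 4.65%. M1BP itself had a thresholded peak and no weak entry. A single gene lay within reach of 348 entries and 2 or more genes of the other 76. One entry, noticed after its values were seen, covered 8 annotated genes of the pre-mod(mdg4) locus, where annotated start sites are crowded. More than 1 annotated start site was present in 38.9% of the genes with a weak entry, 36.0% of genes with a thresholded peak and 26.5% of all genes. A gene was counted if any of its start sites lay within 250 bp, so genes with more start sites could be counted more easily.

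The 10 strongest weak entries had pooled signal values from 259.6 to 260.4. The first was Bet5, a subunit gene of the TRAPP vesicle tethering complex, at 260.4. Next came the shared promoter of Pp4-19C, the catalytic subunit of protein phosphatase 4, and cactin, a splicing-related gene, and then that of CG13698 and mRpS26, a mitochondrial ribosomal protein gene. The others were at atl, an ER membrane fusion GTPase gene, with Wsck, at Ote, a nuclear lamina protein gene, with pen-2, a γ-secretase subunit gene, at BI-1, the Bax inhibitor gene of the ER, at Tsc1, a brake on TOR signalling, with GatB, at CG8237, at CG10958 and at Nup62, a central channel protein of the nuclear pore. None of the 10 was listed by all 3 replicates within 100 bp. Bet5 ranked 5062 in replicate 1 and 3797 in replicate 2, Tsc1 5821 in replicate 1 and 2745 in replicate 2, and Pp4-19C 3682 in replicate 1 and 6222 in replicate 3. Nup62 held Motif 1 with up to 1 mismatch, and none of the 10 held DRE.

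Gene lists were read against these 2 backgrounds, with no test of a list, and were chosen with earlier results of these data known. Of the 40 lists, 10 had 3 or more genes with a weak entry and 12 had none. Mitochondrial ribosomal protein genes had the most, 7 of 75 (9.33%), led by mRpS26 at a signal value of 260.2 and mRpL4 at 258.4. The entry at 260.2 lay nearer to the start site of CG13698. A second weak entry, 49 bp from the mRpS26 start site, had a signal value of 201.9. Of the 33 genes of that list without a thresholded peak, 21.2% had a weak entry, against 4.65% of all such genes. Subunits of respiratory complex I had 5 of 40 (12.5%), led by ND-B14.5A at 242.1 and ND-19 at 225.5, and proteasome subunits had 5 of 48 (10.4%), led by Rpt6 at 256.7 and Rpt3R at 246.2. The Polycomb and trithorax groups, which keep gene states through cell division, had 5 of 37 (13.5%), led by jing at 256.3 and Snr1, a core subunit of the Brahma remodelling complex, at 251.3. These shares lie above 3.56%. Thresholded peaks were found at 45.8% of all proteasome subunit genes, 55% of complex I, 56% of mitochondrial ribosomal and 64.9% of Polycomb and trithorax group genes, the last with kis, which had both.

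Cytosolic ribosomal protein genes had 4 of 92 (4.35%), close to the 3.56% of all genes, with 74 of the 92 carrying thresholded peaks. Of the 18 without one, the 4 were 22.2%, against 4.65% of all such genes. The 4 were RpL38 at 251.8, RpL5 at 249.1, RpS12 and RpS6. Nuclear pore genes had 3 of 25, Nup62 at 259.6, Nup188 at 256.2 and Nup133, and these were 3 of only 4 nuclear pore genes without a thresholded peak. DNA replication genes had 3 of 39, Mcm7, a subunit of the replicative helicase, at 231.1, Sld5, a GINS subunit, at 220.7 and Prim2. Cyclins and mitotic kinases had 3 of 36, Cdk2 at 222.1, Cdk8 at 214.5 and BubR1. Cdk8 was counted in the Mediator list as well. Architectural and insulator proteins had 3 of 24, SMC3, a cohesin subunit, at 227.3, dwg, an insulator protein, at 212.2 and Trl, the GAGA factor. Trl was counted among the Polycomb and trithorax group genes as well, so the lists are not independent. Germline and piRNA genes had 3 of 33, tud at 259.1, spn-E at 223.9 and del. SMC3 shared its entry with Ubc7, spn-E with the complex I gene ND-23, ND-19 with CG30161 and Rpt3R with Alg12. Nup188 shared its entry with CG13148, Sld5 with CG14543 and mRpS26 the stronger of its entries with CG13698. In each case 1 region counts for 2 genes.

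No weak entry lay at 123 cuticle protein genes, at 180 odorant, gustatory and ionotropic receptor genes, at 111 replication-dependent histone genes or at 8 homeotic genes, and none of these had a thresholded peak either. Only entries under a −log10 q-value of 2 were found at 7 cuticle, 9 receptor and 3 homeotic genes, and no entry of any kind at the histone genes. Whether reads could be placed at the histone genes was not tested, so their lack of entries cannot be read as a lack of binding. The same count of 0 was found for 26 maternal, gap and pair-rule genes and for 31 synaptic and neuronal genes, of which 1 and 4 had thresholded peaks. The chaperonin CCT (0 of 8, 6 with thresholded peaks), the Hippo pathway (0 of 20, 12 with thresholded peaks) and cell death genes (0 of 24, 12 with thresholded peaks) held none either. In lists of 8 to 31 genes a share of 3.56% amounts to about 1 gene or fewer, so a count of 0 there is near the background. The muscle list, genes of the contractile apparatus and its regulators, had 2 of 37, at Act5C, a cytoplasmic actin gene, and flr, chosen for naming after their values were seen.

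**Figure D5:**
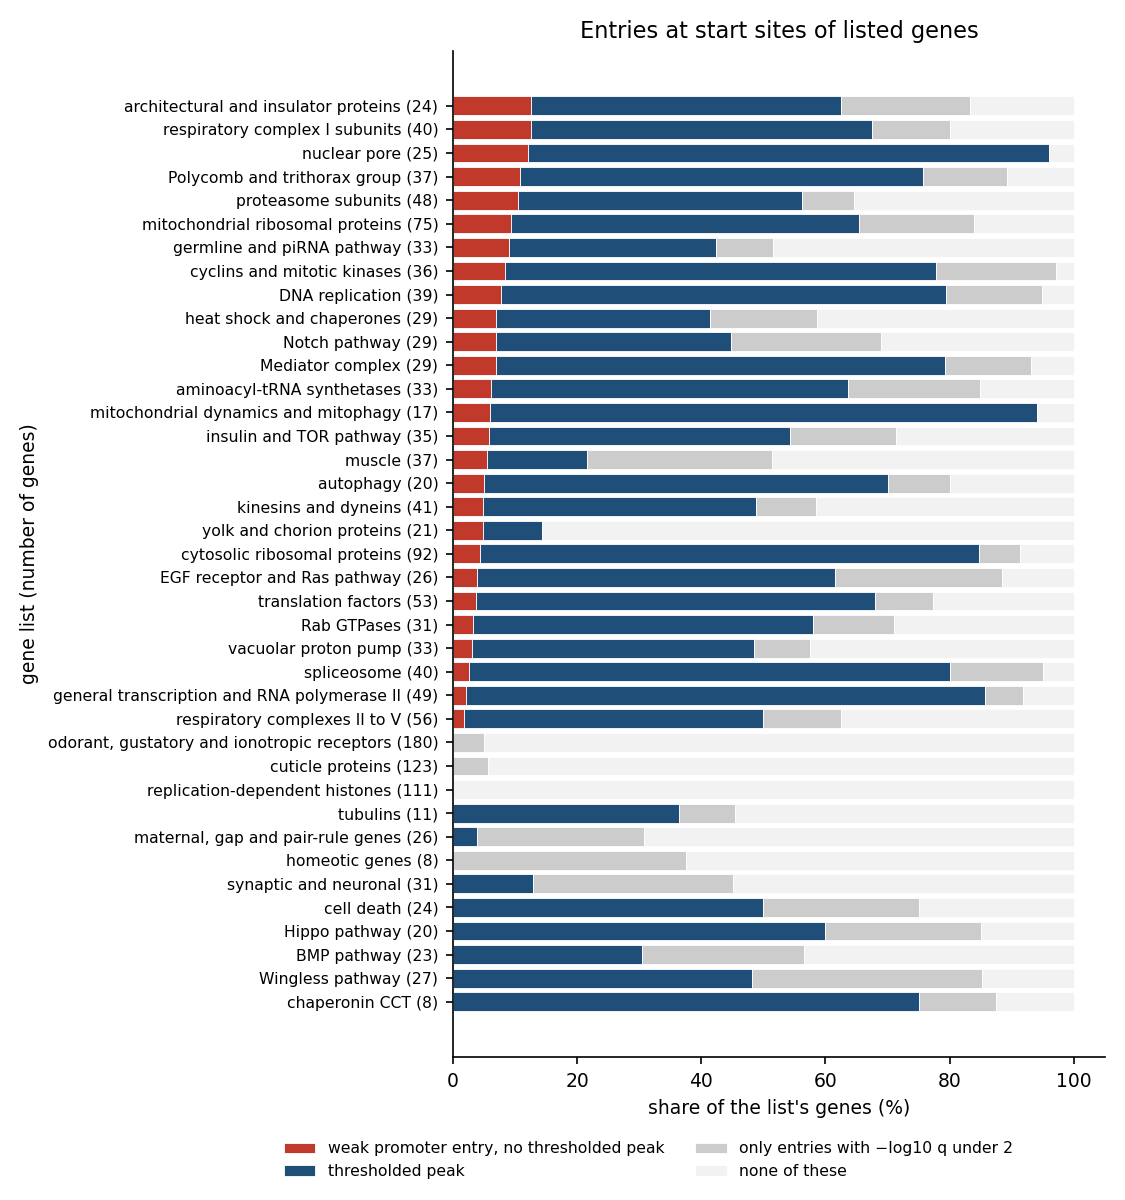
Bars divide the genes of each list of 8 or more genes (number in brackets) into those with a weak promoter entry and no thresholded peak, with a thresholded peak, with only entries under a −log10 q-value of 2, and with none of these, in percent of the list. The red share reaches its highest values in complex I and insulator lists, 12.5% each, and is absent in the cuticle, receptor, histone and homeotic lists.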

How the data were processed

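Each replicate and the pool came as a list of 30000 regions on assembly dm6, with a further list of 4598 regions after IDR thresholding, per the labels and the deposited notes. The deposited signal value (a score whose scale is not given) and the deposited −log10 q-value are the authors' own, with a q-value ceiling per list (3.95 in the pooled list). Which peak caller, aligner and IDR threshold were used is not given in the sources. Read depth is unknown.

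Entries were matched to the thresholded list by chromosome and summit. Start sites of 13945 protein-coding genes came from Ensembl release 115 (BDGP6.54) and sequence from the RefSeq copy of dm6. As a check of the match, 99.9% of 16213 annotated start codons read ATG and the entries fitted within 6 of 6 chromosome arms. Exact and 1-mismatch motif matches had to lie whole within 100 bp of the summit, and the search was tested on simulated sequence. Shares carry 95% Wilson intervals, with no test over regions, and replicate summits within 100 bp counted as listed. An exact two-sided sign-flip permutation test over the 3 replicates compared shares in each replicate's own list. Alternatives changed the q-value cut, distances, windows and tolerance, or merged neighbours. Others kept only the pooled entries that both other replicates listed, or left 1 replicate's own list out of a mean. The alternatives for DRE and the windows around start sites were chosen after seeing the data, as was the comparison with thresholded peaks that have no neighbour within 500 bp.

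Named genes were M1BP, the 10 entries with the highest signal value, entries with exact Motif 1, the 3 just inside and outside the q-value cut, the 5 with the best worst rank, the 5 highest in each replicate alone, and the top 2 genes of each list with 3 or more. Members and lists were chosen with earlier results of these data known. The work used scipy 1.17.1, pandas 2.3.3, matplotlib 3.10.9 and numpy 2.4.6 under Python 3.11.15. Sequences are shown for arms other than 2R.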

Additional observations from a re-analysis of the deposited data

How the results depend on the processing

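Of 80 alternative values, 56 kept to the main value within the spread between replicates, the counting interval or, for counts, 1.5 times, and 24 moved. For Motif 1 that spread is larger than the values themselves (SD 1.31 exact, 4.91 with up to 1 mismatch) and for DRE it is wide (SD 8.08), so staying within it shows little. At a cut of 3 exact Motif 1 was 0% and Motif 1 with up to 1 mismatch 5.56%. With windows of 50 and 200 bp, Motif 1 with up to 1 mismatch was 2.36% and 5.42% and DRE 8.25% and 20.05%. The number of weak entries, 424, was 18 at a −log10 q-value cut of 3 and 812 at 1.3, and no entry remained at 5. The share of genes with a weak entry, 3.56%, was 0.172% at a cut of 3 and 6.50% at 1.3. It was from 0.846% to 1.82% when only pooled entries listed by both other replicates were kept, for each replicate in turn. DRE, 14.2%, was 5.56% among the 18 entries at a cut of 3. Divergent promoters, 37.3%, were 25.5% with the opposite start site within 500 bp.

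The share listed by a replicate moved with every setting. In replicate 1 it was 74.1% with summits within 50 bp, 98.8% within 250 bp, 99.8% by 1 bp of overlap, 78.3% for the replicate's entries at a −log10 q-value of 2 or more and 100% among the 18 entries at a cut of 3. In replicate 2 it was 31.6%, 73.1%, 83.5%, 10.4% and 66.7%, and in replicate 3 it was 40.8%, 75.9%, 81.6%, 7.55% and 22.2%, in the same order of settings. Keeping only the weak entries that both other replicates listed, for each replicate in turn, gave 0.510% to 1.46% for exact Motif 1, 1.94% to 4.37% with up to 1 mismatch, 14.1% to 16.8% for DRE, 37.2% to 40.8% for divergent promoters and 36.8% to 42.3% for median GC content. These entries were still chosen by pooled values that hold all 3 replicates. With 1 replicate left out, the means over the replicates' own lists ran from 0.702% to 1.92% for exact Motif 1, from 2.02% to 6.72% with up to 1 mismatch and from 9.43% to 16.6% for DRE, alternatives chosen after seeing the data. Which cause lies behind each move was not tested, apart from the fewer entries that the stricter cuts keep by construction. No pairing between groups of samples was possible because there is no second group to pair the 3 replicates with. The sign-flip test pairs classes of entries within each replicate's list. Depth is unknown, so detection limits cannot be given.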
